A study of Mus musculus with 3 samples.

Results

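The thymic epithelium of mouse embryos homozygous for a mutant Foxn1 allele (Foxn1 1089/1089) was compared with that of control embryos, gene by gene, by single-cell RNA sequencing of thymic lobes taken at E13.0–E13.5. Thymic epithelial cells (TECs) were selected on their own measured values. A cell needed at least 200 genes, at least 2000 unique molecular identifiers (UMIs, each marking 1 captured RNA molecule), under 20% mitochondrial UMIs and under 5% Hba- and Hbb- globin UMIs. It also needed a UMI of Epcam, an epithelial adhesion molecule, and of Pax1 or Pax9, transcription factors of the pharyngeal pouches, no UMI of Ptprc, the pan-leukocyte marker, and fewer than 20 UMIs of Pth, the parathyroid hormone. The rule took 1966 of 6410 cell barcodes of the control library and 3530 of 12447 of the Foxn1 1089/1089 library, or 5496 of the 24616 barcodes of the whole series. It took 713 of 5759 barcodes of a library labelled Tbx1neo2/neo2, whose values are given beside the others.

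Each genotype had 1 droplet library, so no difference was checked against a replicate and no test was run. The control carried Tbx1+/+ and unmutated Foxn1, and the Foxn1 1089/1089 embryos carried a knock-in deletion of 15 coding bases (c.1089_1103del15) on both alleles. All embryos were on the C57BL/6 background, and the number of embryos pooled into a library was not given in the sources used here. Tbx1 UMIs were not lower in the library labelled Tbx1neo2/neo2. They stood at 3.11 counts per 1000000 UMIs (CPM) in its TECs, against 0.75 CPM in control TECs and 2.96 CPM in Foxn1 1089/1089 TECs. The paper states that the embryonic thymus does not express Tbx1, so these low levels do not check the genotype.

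Foxn1 encodes the forkhead transcription factor that thymic epithelium needs to differentiate. With it, epithelial cells of the third pouch acquire the genes that draw lymphoid progenitors in, commit them to the T cell lineage through Notch and present peptides to them. Without it, a thymic rudiment forms but stays without a functional stroma. Cortical TECs are known for the thymoproteasome and the protease Prss16, medullary TECs for keratins 5 and 14 and for Aire.

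Beyond the genes of the rule, the selected cells carried epithelial transcripts in each library. A UMI of Krt8, a keratin of simple epithelia, was found in 98.5% of control, 96.4% of Tbx1neo2/neo2 and 95.6% of Foxn1 1089/1089 TECs. With each cell thinned to 2000 UMIs the shares were 66.2%, 80.1% and 57.0%, against 1.35% and 1.27% of control and Foxn1 1089/1089 Pdgfra-positive cells, fibroblast-like cells with a Pdgfra UMI and no Epcam or Ptprc UMI. The median depth per TEC was 16466, 45779 and 20320 UMIs in the same order, and the summed UMIs were 33539276, 36297785 and 81631283. Near the limits of the rule, 97 control and 151 Foxn1 1089/1089 TECs had exactly 1 Epcam UMI, while 175 and 458 cells with none met every other criterion. Cells with 10 to 19 Pth UMIs numbered 0 and 10. The Pth limit left out 26 control and 309 Foxn1 1089/1089 cells that met every other criterion, of which 0 and 1 had 20 to 29 UMIs.

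The libraries also differed as a whole, which was followed in the Pdgfra-positive cells (963 in control, 1428 in Tbx1neo2/neo2 and 2444 in Foxn1 1089/1089). For several transcripts the control library stood apart from both others. Gm42418, a transcript that overlaps ribosomal RNA sequence, took 5675 CPM in control TECs, 179 in Tbx1neo2/neo2 and 155 in Foxn1 1089/1089, and the log2 ratio of Foxn1 1089/1089 over control was -5.67 in Pdgfra-positive cells. Mitochondrial genes took 2.72%, 5.79% and 5.73% of TEC UMIs. Of 49 replication-dependent histone genes tested in TECs, 33 were at least 2-fold lower in Foxn1 1089/1089, as were 23 of 35 in Pdgfra-positive cells. Of Pth, which these cells should lack, a UMI was present in 4.57% of control and 51.5% of Foxn1 1089/1089 Pdgfra-positive cells, and in 6.15% and 61.6% of TECs. In the library labelled Tbx1neo2/neo2 the shares were 0.14% and 0.281%, so for Pth the Foxn1 1089/1089 library stood apart. It did so for globins too, which took 0.0198%, 0.0241% and 0.132% of TEC UMIs. Thinned to 2000 UMIs, Hbb-y was found in 5.04% of control and 55.6% of Foxn1 1089/1089 TECs, and in 9.55% and 60.2% of Pdgfra-positive cells. Of 5 sex-linked genes 4 were at least 2-fold higher in both classes, and the sex of the embryos was not given. The part of these shifts in the differences below was not tested. Library pairs shared 17 to 28 barcodes, of which at most 2 were TECs in both.

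Across genes, more were higher than lower in Foxn1 1089/1089 TECs. Among 12813 genes with at least 100 UMIs over both sums, 791 (6.17%) were at least 2-fold lower in Foxn1 1089/1089 than in control and 1663 (13%) at least 2-fold higher. Counts of list members below stand beside these shares over all genes, 6.17% lower and 13% higher. The median log2 ratio was 0.25, and with the ratios centred on that median the counts were 1188 lower and 1085 higher. Which scale is the better one was not tested. In Pdgfra-positive cells, 2.77% of 11316 genes were at least 2-fold lower and 5.28% at least 2-fold higher, around a median of 0.22. Against the library labelled Tbx1neo2/neo2 as well as control, 400 of the 791 lower genes were lower and 416 of the 1663 higher genes higher. Most of the higher genes thus did not pass 2-fold against that library. With that library alone as comparator, 916 of 12990 genes tested were at least 2-fold lower and 527 at least 2-fold higher. Of the 400 and 416 genes past 2-fold against both libraries, 369 and 360 did not pass 2-fold the same way in Pdgfra-positive cells. Genes too scarce there to be tested were not left out of these counts, so they do not show a difference particular to TECs. All log2 ratios below are Foxn1 1089/1089 over control, with 95% intervals (conditional binomial) in brackets that cover counting error only.

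**Figure D1:**
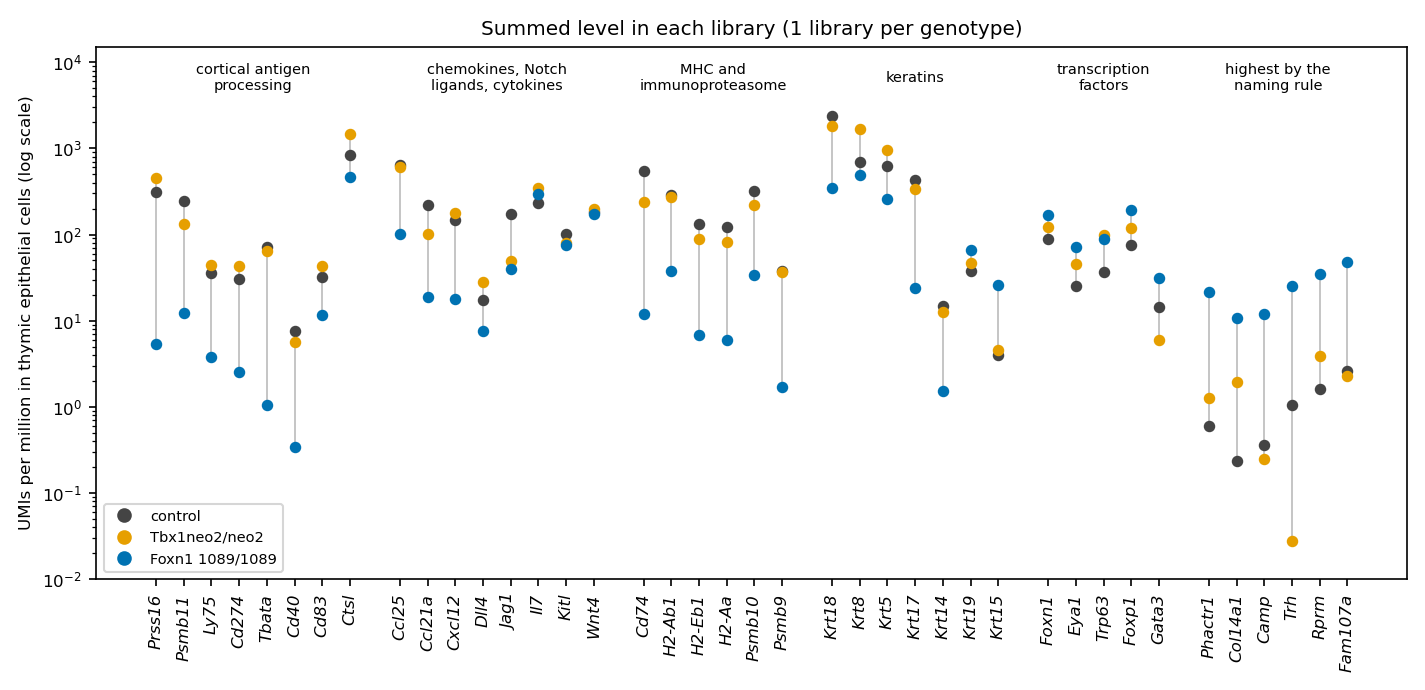
CPM (log axis) of named genes in the summed TECs of each library, 1 point per library, grouped by role. For Prss16, Psmb11, Cd74, Krt17 and Ccl25 the Foxn1 1089/1089 point lies below both other libraries, while for Trh and Fam107a it lies above both.

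Most genes of cortical antigen processing were lower. Of 9 tested members, 7 were at least 2-fold lower and 1 at least 2-fold higher, with a median log2 ratio of -3.56, against 0.25 over all genes. In these sums fewer cells of a type and less RNA per cell cannot be told apart. Prss16 (chr13:22002173-22009742, minus strand), a serine protease of cortical TECs needed for CD4 T cell selection, was at 309 CPM in control, 451 in Tbx1neo2/neo2 and 5.34 in Foxn1 1089/1089. The ratio was -5.85 (-5.99 to -5.71), a 57.8-fold lower level. Psmb11 (chr14:54621433-54629556, plus strand), the catalytic β5t subunit of the thymoproteasome, was at 243, 132 and 12.4 CPM, 19.5-fold lower in Foxn1 1089/1089 than in control at -4.29 (-4.38 to -4.19). For both genes the control and Tbx1neo2/neo2 values lay far above the Foxn1 1089/1089 value.

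Tbata, expressed by thymic stroma, was at 72, 63.9 and 1.04 CPM (-6.11). Ly75, the endocytic receptor DEC-205, was at 35.3, 44.3 and 3.77 CPM (-3.23). Cd40, a costimulatory receptor, was at 7.54, 5.59 and 0.34 CPM, and Cd274, encoding the inhibitory ligand PD-L1, at 30.2, 43.5 and 2.55 CPM. Cd83, which stabilizes MHC class II on the surface of cortical TECs, differed less, at 32.1, 42.7 and 11.5 CPM (-1.48). Ctsl, the lysosomal protease cathepsin L, was at 833, 1476 and 463 CPM and missed 2-fold at -0.85 (-0.87 to -0.82). Enpep, the aminopeptidase bound by the cortical antibody Ly51, was the exception at 1.73, 3.11 and 6.95 CPM, higher in Foxn1 1089/1089 at 2.01 (1.61 to 2.42). Bst1 had 3, 2 and 2 UMIs and was not tested.

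FOXN1 is known to bind sites with the core GACGC, so 4 promoters of genes in these lists are shown with that core in capitals, GACGC on the strand shown or GCGTC where it lies on the other strand. They run from 250 bases before to 50 bases after the RefSeq start on GRCm38.p6, and were chosen as 3 genes whose window holds the core and 1, Dll4, whose window does not. All 4 genes were at least 2-fold lower, so the display cannot show whether the core goes with a lower level.
Psmb11, chr14:54625060-54625359, plus strand: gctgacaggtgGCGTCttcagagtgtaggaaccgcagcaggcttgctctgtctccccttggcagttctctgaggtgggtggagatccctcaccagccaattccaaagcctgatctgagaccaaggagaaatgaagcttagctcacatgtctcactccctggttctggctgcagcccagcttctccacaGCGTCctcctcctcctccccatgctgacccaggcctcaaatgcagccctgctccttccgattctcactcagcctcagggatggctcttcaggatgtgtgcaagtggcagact
Ccl25, chr8:4324960-4325259, plus strand: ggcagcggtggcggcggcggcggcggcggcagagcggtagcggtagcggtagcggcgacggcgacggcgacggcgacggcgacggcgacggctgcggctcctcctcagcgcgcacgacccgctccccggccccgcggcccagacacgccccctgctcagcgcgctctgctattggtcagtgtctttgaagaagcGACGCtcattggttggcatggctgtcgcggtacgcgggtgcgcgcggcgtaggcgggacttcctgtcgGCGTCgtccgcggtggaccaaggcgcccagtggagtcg
Cxcl12, chr6:117168285-117168584, plus strand: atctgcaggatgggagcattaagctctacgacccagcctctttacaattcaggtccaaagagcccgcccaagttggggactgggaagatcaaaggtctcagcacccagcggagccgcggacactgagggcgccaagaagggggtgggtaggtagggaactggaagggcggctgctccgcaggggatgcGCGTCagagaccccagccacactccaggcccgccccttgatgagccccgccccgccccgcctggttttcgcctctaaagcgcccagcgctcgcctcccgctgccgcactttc
Dll4, chr2:119325534-119325833, plus strand: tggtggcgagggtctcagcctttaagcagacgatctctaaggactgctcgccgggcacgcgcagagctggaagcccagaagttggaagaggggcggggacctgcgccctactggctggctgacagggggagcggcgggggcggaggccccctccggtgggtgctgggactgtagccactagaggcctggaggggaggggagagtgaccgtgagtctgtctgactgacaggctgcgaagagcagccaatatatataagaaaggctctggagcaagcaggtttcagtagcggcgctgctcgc

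The core is short: 27.4% of 27025 RefSeq promoters of the same length hold it on either strand. Of 12811 tested genes 9624 had a window in the table, fewer than the 80% needed to compare shares, and 47.8% of these held it. Among genes with a window, it was held by 39.1% of 522 at least 2-fold lower and 39.3% of 1167 at least 2-fold higher. For genes at least 8-fold lower the share was 27.3% of 66. These shares were not compared either. The core was found at 2 places in the windows of Psmb11 and Ccl25 and at 1 place in that of Cxcl12. Windows not shown held it too. Among them were Enpep (1 place) and Fam107a (2 places), both at least 2-fold higher. Others were Jag1 (1 place) and Nkx6-2 (2 places), both at least 2-fold lower. Kitl and Jag2, both within 2-fold, and the untested Dll1 held it at 1 place each. Of the 19 members of the lymphopoiesis lists that were at least 2-fold lower, 13 had a window in the table. The core was held by 4 of these 13 (30.8%). With 13 of 19 windows found, a comparison of shares was void. A match is only a string of letters and was not taken as a binding site.

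Chemokines that draw lymphoid progenitors into the rudiment were several-fold lower. Of 6 tested members of the chemokine list, 4 were at least 2-fold lower and none at least 2-fold higher, with a median log2 ratio of -2.48. Ccl25 (chr8:4325210-4360020), the ligand of CCR9, was at 649, 608 and 100 CPM, 6.47-fold lower than control at -2.69 (-2.73 to -2.66). Ccl21a, a CCR7 ligand with near-identical gene copies among which reads could be split, was at 222, 103 and 19.0 CPM (-3.55). Cxcl12, the ligand of CXCR4, was at 147, 177 and 17.9 CPM, 8.18-fold lower at -3.03 (-3.12 to -2.95). In Pdgfra-positive cells, which also express it, Cxcl12 stood at 368 CPM in control and 296 CPM in Foxn1 1089/1089, a ratio of -0.32. The membrane-bound chemokine Cxcl16 was at 4.98, 3.55 and 1.03 CPM (-2.27). Cx3cl1 was at 3.43, 4.88 and 5.01 CPM, and Ackr4, the scavenging receptor that clears CCL25 and CCL21, at 7.28, 3.64 and 7.31 CPM (0.01, -0.21 to 0.23). Ccl19 had 19, 1 and 1 UMIs and Ccl20 had 1, 0 and 26, and neither was tested.

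Notch ligands and lymphoid growth factors did not share a direction. Of 9 tested members, 2 were at least 2-fold lower and 1 higher, with a median of -0.40. Dll4, the Notch ligand of early T cell commitment, was at 17.2, 28.1 and 7.57 CPM (-1.18, -1.35 to -1.02). Without likely doublets its ratio was -0.98, just short of 2-fold. Jag1, another Notch ligand, was at 174, 49.9 and 39.8 CPM, so both other libraries lay below control, and its ratio in Pdgfra-positive cells, -2.17, matched the -2.13 of TECs. Il7, the survival factor of early lymphoid cells, was at 230, 348 and 292 CPM, highest in Tbx1neo2/neo2 (0.35, 0.31 to 0.38). Kitl, the ligand of the receptor Kit, was at 101, 80.7 and 75.9 CPM (-0.40), and Wnt4 at 181, 196 and 175 CPM (-0.05, -0.10 to -0.01). Neither reached 1.5-fold. Flt3l, a growth factor of early progenitors, had 65, 39 and 10 UMIs and Dll1 had 18, 21 and 27, too few to be tested. Fgf10, a mesenchymal growth factor, was at 0.39, 0.69 and 3.70 CPM (3.25), beside a higher mesenchymal signal described below.

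Genes of MHC class II, the molecules that show peptides to CD4 T cells, were lower throughout. All 6 tested members were at least 2-fold lower, with a median of -3.61. Cd74, the invariant chain that escorts class II molecules, was at 540, 239 and 11.99 CPM, 45.0-fold lower at -5.49 (-5.59 to -5.40). H2-Aa was at 122, 83.0 and 5.92 CPM, H2-Eb1 at 133, 89.1 and 6.77 CPM and H2-Ab1 at 290, 271 and 38.2 CPM. The peptide-loading factors H2-DMb1 and H2-DMa stood at -2.15 and -1.14. Macrophage and dendritic cell markers, which could bring class II RNA, summed to 34.1, 9.06 and 12.2 CPM over 8 genes, against 1110, 704 and 72.2 CPM for the class II list, and their part was not tested.

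In the class I pathway 7 of 9 tested genes were at least 2-fold lower and none higher, with a median of -2.07. Psmb10, an immunoproteasome subunit, was at 318, 218 and 33.6 CPM (-3.24, -3.30 to -3.18), and Psmb9, another, at 37.8, 36.6 and 1.68 CPM (-4.49). The transporter gene Tap2 was at 4.59, 4.55 and 0.32 CPM. The heavy chain H2-K1 stood at 31.9, 60.8 and 7.61 CPM, while the light chain B2m differed by less than 2-fold at 47.8, 64.1 and 35.7 CPM (-0.42). Psmb8 was lower than control in both other libraries, at 7.16, 1.71 and 0.69 CPM, and its ratio in Pdgfra-positive cells was -2.62.

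**Figure D2:**
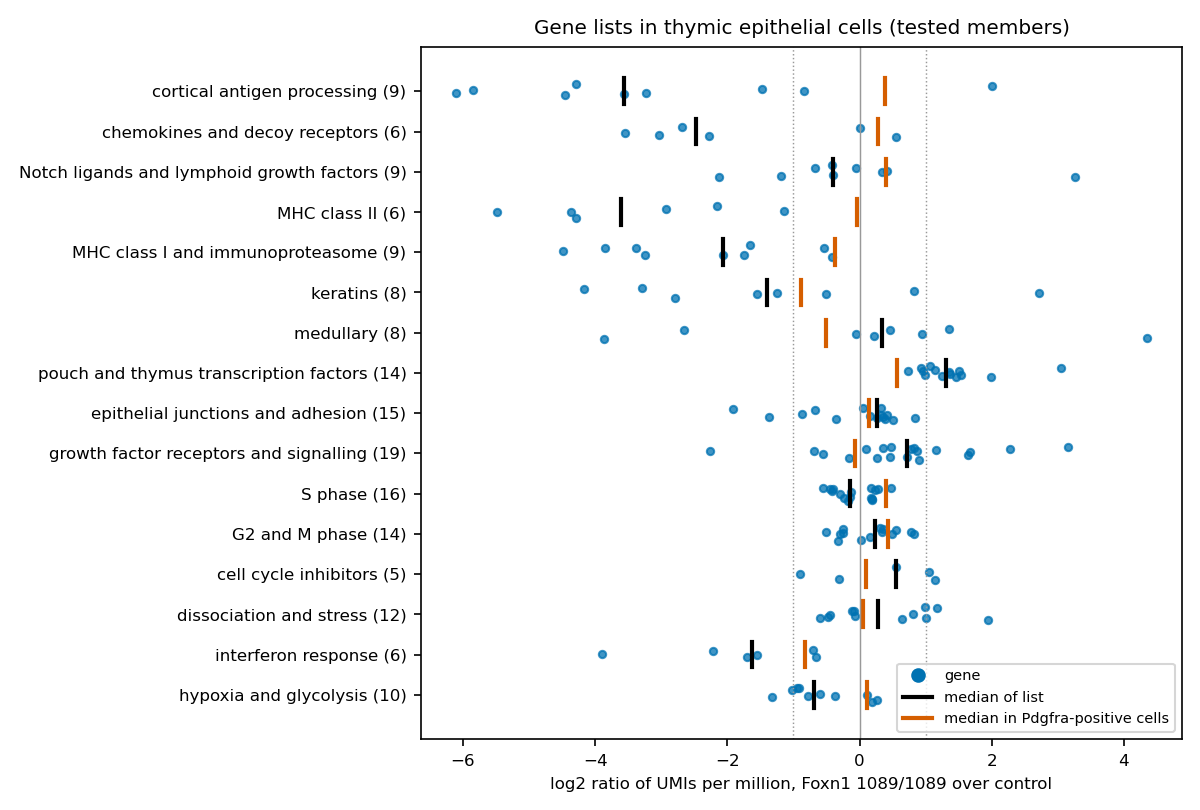
Log2 ratios (Foxn1 1089/1089 over control) of the tested members of each list in TECs, 1 point per gene with the number tested in brackets, the list median in black and the median of the same genes in Pdgfra-positive cells in orange (for MHC class II that is 1 gene). Dotted lines mark 2-fold. Cortical antigen processing, chemokines and both MHC lists lie left of 0 in TECs, the pouch transcription factors right of it, and the S phase and G2 and M phase lists between the dotted lines.

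The share of cells with a UMI follows from the mean level where counts are sparse, and is given as a description of how often each RNA was found. To compare shares at equal depth, each cell was thinned to 2000 UMIs (Clopper-Pearson intervals, counting error only). Psmb11 was then found in 33.6% (31.5 to 35.7) of control, 22.6% (19.6 to 25.8) of Tbx1neo2/neo2 and 2.69% (2.18 to 3.28) of Foxn1 1089/1089 TECs, and in 0.0409% of Foxn1 1089/1089 Pdgfra-positive cells. Unthinned shares were 69.5%, 71.4% and 15%. Prss16 was found in 41.6% (39.4 to 43.8), 50.5% (46.8 to 54.2) and 1.59% (1.20 to 2.06), unthinned in 85%, 89.5% and 10.5%. Ccl25 was found in 48.6%, 47.5% and 12.6% (11.6 to 13.8). In Foxn1 1089/1089 TECs it was thus found more often than Psmb11 or Prss16, and above the 4.46% of Pdgfra-positive cells of that library. H2-Ab1 was found in 41.7%, 35.6% and 7.42% (6.58 to 8.34).

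Within the Foxn1 1089/1089 library these RNAs were not spread evenly over the TECs. In the 531 cells with a Psmb11 UMI, 15% of the TECs, Ccl25 stood at 387 CPM, against 46.4 CPM in the other TECs, and these cells held 61.1% of all Ccl25 UMIs. Cd74 was 7.45-fold and Krt8 2.02-fold as high in them, and Foxn1 itself stood at 293 against 145 CPM. Their median depth was 21020 UMIs, against 20244 in the others. In control the 1366 cells with a Psmb11 UMI had a Ccl25 level 9.41 times that of the others and a Foxn1 level 1.90 times that of the others. Prss16 in the 531 mutant cells was 9.14 CPM, far below the 400 CPM of the control cells chosen the same way.

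**Figure D3:**
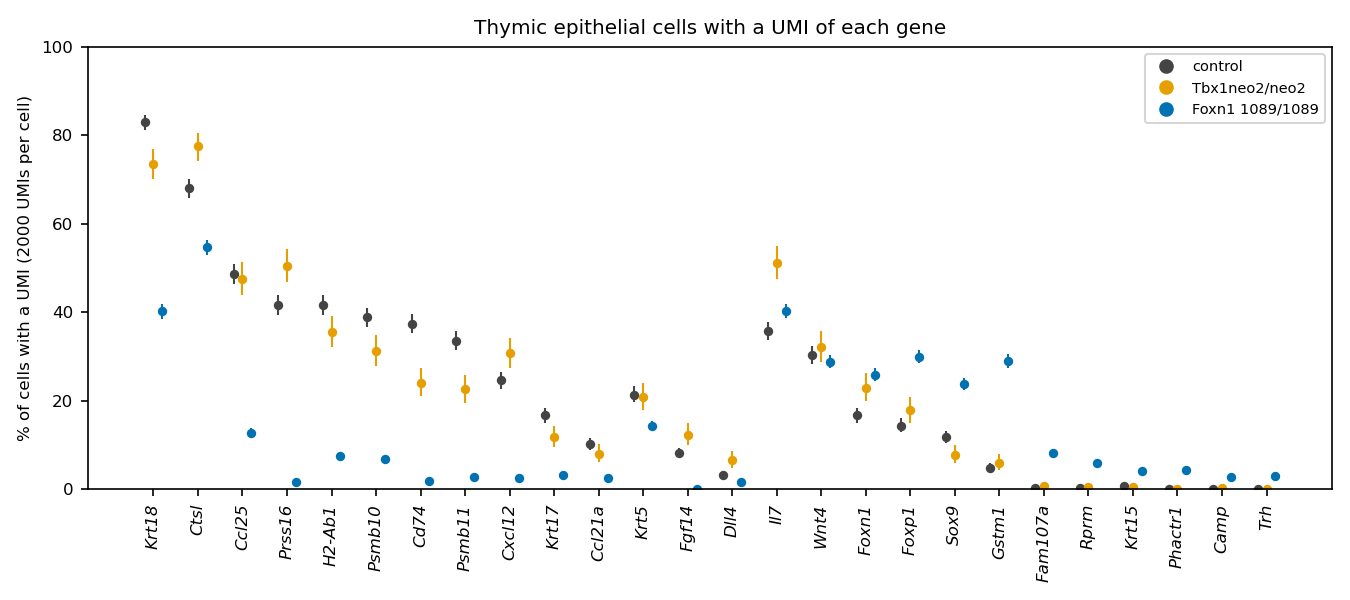
Share of TECs with at least 1 UMI after thinning each cell to 2000 UMIs, with exact 95% intervals (counting error only), for 1966 control, 713 Tbx1neo2/neo2 and 3530 Foxn1 1089/1089 cells. The shares of Prss16, Psmb11, Cd74 and Cxcl12 are under 3% in Foxn1 1089/1089 and between 22% and 51% in both others, while those of Gstm1 and Sox9 are highest in Foxn1 1089/1089.

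Keratins, the intermediate filaments by which TEC subsets are told apart, separated into lower and higher members. Of 8 tested, 5 were at least 2-fold lower and 1 higher. Krt18, partner of Krt8 in simple epithelia, was at 2362, 1818 and 342 CPM, 6.90-fold lower at -2.79 (-2.81 to -2.77), whereas Krt8 was at 697, 1677 and 488 CPM (-0.51). Krt17 was at 429, 337 and 23.7 CPM, 18.1-fold lower at -4.18 (-4.25 to -4.11), and Krt14 at 15.0, 12.6 and 1.53 CPM (-3.29). Krt5, a basal and medullary keratin, was at 619, 969 and 260 CPM (-1.25). Krt15, a keratin of basal progenitors in other epithelia, went the other way at 3.995, 4.63 and 26.2 CPM, 6.56-fold higher at 2.71 (2.46 to 2.98). Its thinned share was 0.712% (0.390 to 1.19) in control and 4.19% (3.56 to 4.91) in Foxn1 1089/1089. Krt19 was at 37.8, 46.3 and 66.6 CPM (0.82).

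The medullary list held 2 members at least 2-fold lower and 2 higher among 8 tested, with a median of 0.34. Tnfrsf11a, which encodes the receptor RANK, was at 5.37, 4.22 and 0.37 CPM (-3.87), and Relb, a transcription factor needed for medullary TECs, at 39.2, 32.9 and 6.25 CPM (-2.65). Aire and Fezf2, the regulators of tissue-restricted antigens, were near 0 at this age: 10, 14 and 2 UMIs and 57, 26 and 1 UMIs, neither tested. Cldn3, a tight junction protein, was at 10.8, 17.2 and 27.4 CPM (1.35). Sox9 was at 80.3, 60.1 and 154 CPM (0.94, 0.88 to 1).

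Transcription factors of the pouch and the thymus were higher as a group. None of 14 tested was at least 2-fold lower and 10 were at least 2-fold higher, with a median of 1.30 (1.06 and 8 higher with ratios centred on the median of all genes). In Pdgfra-positive cells 3 of 8 tested were at least 2-fold higher, with a median of 0.57. Foxn1 itself (chr11:78357577-78386558, minus strand) was at 88.6, 123 and 169 CPM, 1.90-fold higher at 0.93 (0.87 to 0.99). The UMIs are read at the 3' end of the transcript and do not check the 15-base deletion. Eya1, a transcriptional coactivator of pouch patterning, was at 24.99, 45.3 and 70.7 CPM (1.5), and Foxp1 at 75.5, 118 and 194 CPM (1.36). For both, control was lowest and Tbx1neo2/neo2 lay between. Trp63, the p53 relative that maintains epithelial progenitors, was at 37.1, 98.3 and 88.3 CPM, higher than control in both other libraries. Against Tbx1neo2/neo2 only 1 of the 14 factors was at least 2-fold higher, Gata3 at 14.3, 6.03 and 31.4 CPM, with a median of 0.41 over the list.

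Receptors and signalling targets held 5 higher and 1 lower member among 19 tested, against 13% higher and 6.17% lower over all genes. In Pdgfra-positive cells 2 of 18 tested were at least 2-fold higher and 2 lower. Met, the receptor of hepatocyte growth factor, was at 2.33, 5.87 and 20.7 CPM (3.15, 2.82 to 3.5), and Erbb3 at 6.32, 13.7 and 19.6 CPM (1.63). Notch1 was at 31.7, 57.4 and 71.0 CPM (1.16). Id1, a BMP target, was at 141, 264 and 682 CPM (2.28), with 1.56 in Pdgfra-positive cells. Fgfr2, the epithelial FGF receptor that thymic growth needs, was at 107, 119 and 72.8 CPM (-0.56), short of 2-fold. Notch2 was lower than control in both other libraries at 99.4, 35.2 and 20.7 CPM and in Pdgfra-positive cells (-1.62).

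Proliferation genes differed little. None of 16 S phase and 14 G2 and M phase genes tested passed 2-fold in either direction, with medians of -0.14 and 0.24 beside 0.25 over all genes. In Pdgfra-positive cells the medians of the same genes were 0.41 and 0.42. Mki67 was at 115, 228 and 198 CPM and Pcna at 89.2, 96.3 and 65.2 CPM. A Top2a or Mki67 UMI was present in 72.5%, 81.3% and 67.4% of TECs. Of 5 cell cycle inhibitors 2 were at least 2-fold higher, against 13% of all genes, and none was with centred ratios. The imprinted Cdkn1c was among the 2, at 182, 318 and 404 CPM (1.15).

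The epithelial framework was mostly within 2-fold: 13 of 15 junction and adhesion genes, with Cdh1, encoding E-cadherin, at 38.5, 99.7 and 68.6 CPM (0.83). The 2 lower members were Lamb3, a laminin chain of basement membrane, at 4.89, 5.37 and 1.30 CPM (-1.91) and the desmosomal cadherin Dsc2 at 45.0, 79.6 and 17.4 CPM (-1.37). Interferon-response genes were lower in 4 of 6 tested, with a median of -1.63. Isg15 was at 35.4, 12.1 and 2.39 CPM and also lower in Pdgfra-positive cells (-2.54). Of 10 genes of hypoxia and glycolysis, 2 were at least 2-fold lower (5 with centred ratios), Hk2 (-1.32) and Aldoa (-1.03), the latter at 1559, 848 and 765 CPM. Of 12 dissociation and stress genes, 3 were at least 2-fold higher, against 13% of all genes, and 1 stayed so with centred ratios. The 3 were Atf3 at 29.6, 21.6 and 114 CPM (1.95), Hsp90aa1 (1.16, and 1.73 in Pdgfra-positive cells) and Egr1 (1.01).

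Named by size alone, the lowest ratios belonged largely to genes outside these lists. Of the 12 lowest, 3 had enough UMIs to be tested in Pdgfra-positive cells. Gm42418 and Ccl5, a chemokine of lymphoid cells, were at least 2-fold lower there too, and Cdh8 was not. The other 9 were too scarce in those cells to be compared. Fgf14 (chr14:123977907-124677127), a member of the FGF homologous factors that bind sodium channels, had 1271, 2320 and 2 UMIs, a ratio of -10.60 (-13.64 to -8.74). A UMI was found in 36.0% of control, 62.0% of Tbx1neo2/neo2 and 0.0567% of Foxn1 1089/1089 TECs, without thinning. Slc22a7, an organic anion transporter, had 1338, 740 and 13 UMIs. The homeobox gene Nkx6-2 had 506, 533 and 6 UMIs, with a ratio of -7.68 (-9.13 to -6.55). Cdh8, a cadherin on chr8:99024471-99416471, had 684, 1368 and 29 UMIs, and the noncoding A330008L17Rik, which starts beside it on the opposite strand, 770, 1007 and 6 UMIs. In Pdgfra-positive cells the ratio of Cdh8 was 0.23. Il4i1, an amino acid oxidase, had 692, 181 and 12 UMIs and the nuclease Dnase1l3 464, 155 and 8. Tbata, Prss16 and Cd74, given above, complete the 12.

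Of the 12 highest, 7 were too scarce in Pdgfra-positive cells to be tested there. Phactr1, Col14a1 and Rprm were tested and were not 2-fold higher, while Pcp4 and Spp1 were. Phactr1, a regulator of actin, was at 0.60, 1.27 and 21.4 CPM (5.16, 4.53 to 5.88). Camp, the antimicrobial peptide cathelicidin, was at 0.36, 0.25 and 11.9 CPM (5.06, 4.25 to 6.02). Trh, the prohormone of thyrotropin-releasing hormone, had 35, 1 and 2048 UMIs (4.59, 4.11 to 5.11). Rprm, a p53-induced inhibitor of the cell cycle, was at 1.61, 3.91 and 34.8 CPM, and the stress-responsive Fam107a at 2.59, 2.29 and 47.9 CPM. All 5 stood below 4 CPM in both other libraries.

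Col14a1, a fibril-associated collagen, was at 0.24, 1.93 and 10.7 CPM (5.49, 4.5 to 6.70), above the 4.02 CPM of Foxn1 1089/1089 Pdgfra-positive cells. Cdh13, Fabp7, Mettl21e and the predicted gene Gm38112 stood at 5.48, 4.93, 5.30 and 5.24. Pcp4, a calmodulin-binding peptide, was at 0.21, 6.03 and 8.54 CPM and Spp1, osteopontin, at 0.21, 0.14 and 6.54 CPM, with ratios of 1.14 and 2.21 in Pdgfra-positive cells. Few cells carried some of these RNAs: 1 Foxn1 1089/1089 cell held 412 of the 697 Pcp4 UMIs, and 1 cell held 136 of the 521 Fabp7 UMIs. A UMI was found in 0.963% of TECs for Pcp4 and 1.33% for Fabp7. The ratio of Pcp4 was 3.71 without likely doublets and 1.76 in cells with no mesenchymal or endothelial marker UMI, while that of Phactr1 was 5.46 and 5.15.

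Of the Foxn1 1089/1089 TECs, 279 (7.90%) had a Trh UMI. In these cells Krt5 stood at 462 CPM, against 240 CPM in the other TECs. Gstm1, a glutathione transferase whose TEC level was 31.99, 54.2 and 467 CPM in the 3 libraries, stood at 705 against 443 CPM. Cd74 was lower in them, at 4.06 against 12.8 CPM, and Foxn1 was 1.20 times as high as in the others. The median depth was 21195 UMIs, against 20293 in the others. Gstm1 was singled out after its values had been seen.

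**Figure D4:**
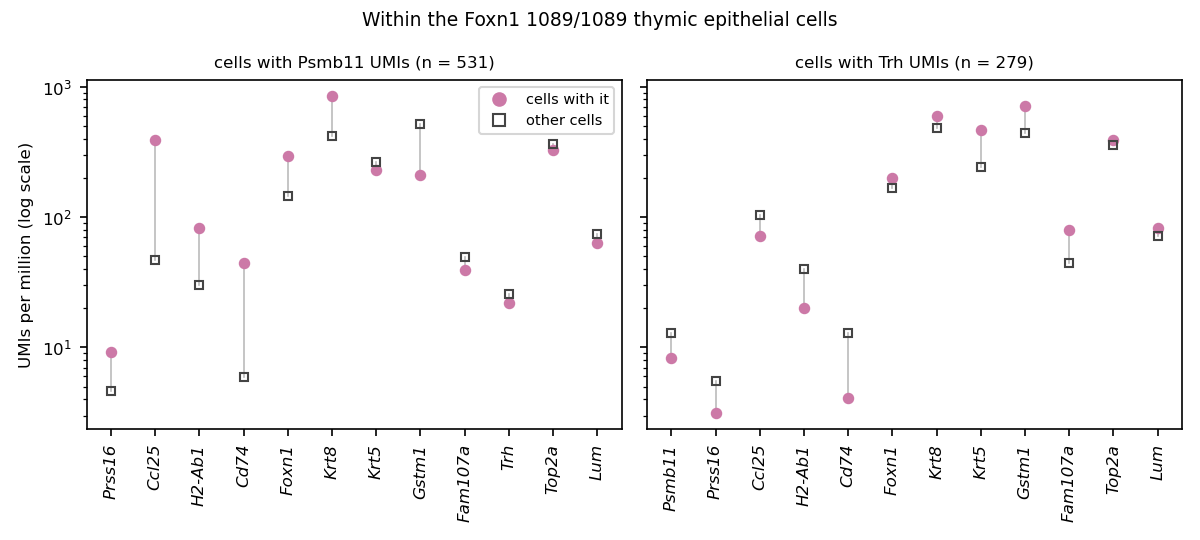
CPM (log axis) in Foxn1 1089/1089 TECs with a UMI of Psmb11 or Trh (circles) and in all other TECs of that library (squares). Ccl25 and Cd74 are higher in the Psmb11 cells, while in the Trh cells Krt5 and Gstm1 are higher and Cd74 is lower.

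Part of the differences was shared with Pdgfra-positive cells. Of 791 genes lower in TECs, 459 could be tested in Pdgfra-positive cells, and 197 of these (42.9%) were at least 2-fold lower there too. Of 1663 higher genes, 1270 could be tested and 288 (22.7%) were higher there too. Another 332 lower genes were too scarce in Pdgfra-positive cells to be tested. The ribosome-associated Gm10073, at 21.2, 136 and 259 CPM, was an example of a shared difference, with 3.61 in TECs and 3.22 in Pdgfra-positive cells. So was Lars2, a mitochondrial tRNA synthetase, at 154, 12.5 and 9.57 CPM, with -4.01 and -4.45.

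**Figure D5:**
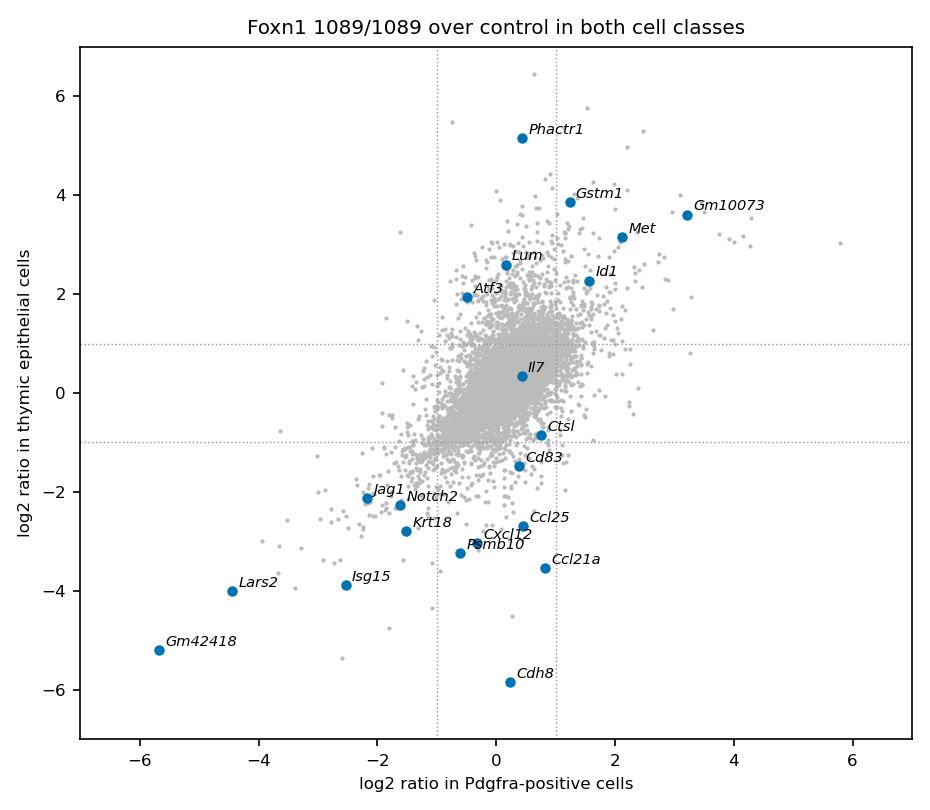
Log2 ratios (Foxn1 1089/1089 over control) in TECs against those in Pdgfra-positive cells for genes with at least 100 UMIs over both sums in each class, 1 point per gene, with dotted lines at 2-fold. Ccl25, Cxcl12, Ccl21a and Cdh8 are low in TECs and within 2-fold in Pdgfra-positive cells, while Gm42418, Lars2, Jag1 and Isg15 are low and Gm10073 high in both.

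Markers of other cell types were present in the TEC sums at low levels. The 10 mesenchymal markers summed to 130, 441 and 444 CPM, or 1.54%, 4.41% and 5.55% of the level in Pdgfra-positive cells, and 7 of the 10 were at least 2-fold higher in Foxn1 1089/1089 TECs. Lum, a matrix proteoglycan, was at 11.99, 28.7 and 72.6 CPM. The 6 endothelial markers summed to 33.3, 38.0 and 64.6 CPM, with 5 higher, and the 11 thymocyte markers to 36.4, 19.2 and 13.8 CPM, with 4 of 6 tested lower. Cd3d and Cd3e, defining genes of T cells, had 8 and 9 UMIs in control and 1 and 1 in Foxn1 1089/1089. Leaving out likely doublets kept 1459 control, 134 Tbx1neo2/neo2 and 2083 Foxn1 1089/1089 TECs. Then 18 of the lymphopoiesis-list genes were still at least 2-fold lower than control, against 19 of 30 tested in all TECs. At least 2 mesenchymal marker UMIs were present in 10.1%, 73.8% and 33.4% of all TECs, in the same order of libraries. These shares were not adjusted for depth, which was greatest in Tbx1neo2/neo2.

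Neighbouring endodermal fates were followed by airway, thyroid and parathyroid lists. Of 6 airway genes tested 1 was at least 2-fold lower and 2 higher, against 6.17% and 13% of all genes. Of 4 parathyroid genes 3 were higher, with a median of 2.80. In Pdgfra-positive cells 2 of the same 4 were at least 2-fold higher, with a median of 1.11. The 1 thyroid gene tested was within 2-fold. Wfdc2, a secreted protein of airway and other epithelia, made up most of the airway sum at 205, 201 and 151 CPM (-0.44). Nkx2-1, a thyroid and lung factor, had 7 UMIs in control and 7 in Foxn1 1089/1089 TECs, against 966 in Tbx1neo2/neo2, and Foxa2 had 3, 191 and 0. Foxj1, the ciliated cell factor, had 105, 104 and 27 UMIs. Of the parathyroid genes, Chga was at 1.34, 0.19 and 16.9 CPM (3.66) and Gcm2, the parathyroid master regulator, had 4, 0 and 54 UMIs, beside the Pth UMIs found in Pdgfra-positive cells of the same library. Chga was likewise higher in those cells (2.96). Neural and muscle markers summed to 6.08, 13.6 and 13.8 CPM and to 3.76, 15.3 and 10.7 CPM, and red blood cell markers other than globins to 3.04, 3.53 and 4.54 CPM.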

How the data were processed

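The deposited files of the 3 libraries hold UMI counts per gene and barcode, unnormalized, which the submitters' processing notes credit to Cell Ranger 3.0.0 and the mouse build mm10. The authors clustered the cells with Seurat, and no cluster labels were used here. UMIs were summed over the selected cells of a library and divided by all their UMIs (counts per 1000000, CPM). Ratios were taken for genes with at least 100 UMIs over both sums, and a gene counted as lower or higher from a 2-fold point ratio. For medians, counts and alternatives 0.5 UMI was added to both sums. Depth, in TEC UMIs per library, sets the precision of each level, and the exact intervals cover counting error only.

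The members and gene lists were chosen with earlier results of these data known. Genes were named as members of lists by role, and by size as the 12 highest and 12 lowest by the interval bound nearest to no difference, among genes with at least 300 UMIs and leaving out the genes of the rule, mitochondrial, globin and sex-linked genes. Trh cells, Gstm1, Gm10073, Lars2 and the marker-free cells were chosen after their values were seen. Of 56 symbols with several gene IDs, the ID with the most UMIs was used. Trbc1 and Ahsp were not analysed here, and some list members are not reported here. Doublets stayed in; the alternative without likely doublets left out cells with at least 2 UMIs of mesenchymal, endothelial or thymocyte markers and the deepest 5% of each library. Other alternatives changed the scaling (median of ratios, TMM of edgeR 4.0.16), the denominator, the gene minimum, the weight or depth of cells, the cell rule, the reference cells and the comparator. Coordinates of genes come from GENCODE M21 (GRCm38), and promoters from RefSeq. Intervals were tested on simulated data, which cannot show how far libraries or embryos of the same genotype differ. Python 3.11.15, numpy 2.4.6, scipy 1.17.1, pandas 2.3.3, matplotlib 3.10.9 and R 4.3.3 were used.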

Additional observations from a re-analysis of the deposited data

Results flagged for a closer look

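In 13 of 10959 genes tested in both classes, TECs and Pdgfra-positive cells differed in opposite directions. Each class differed by at least 2-fold between Foxn1 1089/1089 and control, and the difference between the classes was not tested. Lower in TECs and higher in Pdgfra-positive cells were Nrcam, a neuronal adhesion molecule (log2 ratios, with 0.5 UMI added to each sum, of -1.96 and 1.11), the cytoskeletal linker Dst (-1.41 and 1.12), Nav1 (-1.39 and 1.18), Cth, an enzyme of cysteine synthesis (-1.26 and 1.21), the kinesin Kif21a (-1.25 and 1.06) and Cmtm8 (-1.06 and 1.07). Higher in TECs and lower in Pdgfra-positive cells were Mtus1 (1.07 and -1.32), Fam84a (1.25 and -1.27), Cystm1 (1.36 and -1.34), Cygb, encoding cytoglobin (1.46 and -1.51), Gm13889 (1.49 and -1.86), Itih5 (1.87 and -1.04) and Epyc, a matrix proteoglycan (3.16 and -1.62). Nav1 was at 39.7 CPM in control, 99.0 CPM in Tbx1neo2/neo2 and 15.2 CPM in Foxn1 1089/1089 TECs, and at 24.4 and 55.2 CPM in control and Foxn1 1089/1089 Pdgfra-positive cells. Some of these ratios rest on few control UMIs. Epyc had 8 and Gm13889 had 27 in control TECs, and Kif21a, Nrcam and Cmtm8 had 16, 18 and 19 in control Pdgfra-positive cells.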

How the results depend on the processing

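No paired analysis was possible because each genotype had 1 library. The 791 lower and 1663 higher genes became 1188 and 1085 with median-of-ratios scaling, 1142 and 1119 with TMM, 2808 and 3583 with no gene minimum, 348 and 665 in cells thinned to 2000 UMIs (8036 genes tested), and 280 and 627 relative to Pdgfra-positive cells. Higher genes numbered 1025 where the whole interval had to pass 2-fold, 1088 in cells with no Pth UMI, 993 with no Pth, Gcm2 or Chga UMI, 527 against the library labelled Tbx1neo2/neo2, and 915 in cells with no mesenchymal or endothelial marker UMI, an alternative chosen after seeing the data. Relative to Pdgfra-positive cells, where fewer genes could be tested, 8 lymphopoiesis-list genes were at least 2-fold lower in place of 19 of 30 tested. Testable there were 3 of 9 cortical, 4 of 6 chemokine, 7 of 9 Notch and growth factor and 1 of 6 MHC class II genes. Of the other epithelial lists, 24 members were past 2-fold in place of 51 of 146 tested. Over all genes, 10959 could be tested in place of 12813. The drop in counts thus cannot be read as a drop in share. Of 92 named genes past 2-fold, 84 kept their direction against the library labelled Tbx1neo2/neo2, and 41 of 45 did relative to Pdgfra-positive cells. Under the other alternatives every one with a value kept its direction. Those alternatives reuse UMIs of the same libraries, and the genes were picked past 2-fold, so this was nearly fixed in advance. Relative to Pdgfra-positive cells the log2 ratio turned to 0.0488 for Jag1, -0.35 for Six4, -0.56 for Hsp90aa1 and 0.48 for Gm42418. Against the library labelled Tbx1neo2/neo2 it turned to -2.77 for Sox2, -0.92 for Fgfr1, -0.28 for Irx5, -0.39 for Foxa1, -0.18 for Hsp90aa1, -0.0739 for Tbx1, -0.15 for Trp63 and -0.13 for Cdkn1a. The causes were not tested. Genes under 100 UMIs could not be compared at this depth.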
